A study of Homo sapiens with 6 samples.

Results

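The coagulation and fibrinogen genes described here are F3, TFPI, F10, F5, F2, FGA, FGB, FGG and PROS1. They are 9 of the 22395 genes measured, each read by 1 probe set, and were chosen by gene symbol from the blood clotting pathway with their log2 levels on all 6 arrays already known. Their levels, differences and intervals are therefore given as a description. Their calls in the fit over all genes, and in its alternative settings, are counted with nothing read from them. RNA came from A549, an established human lung adenocarcinoma line, in 3 groups of 2 arrays each: cells given 2 µM Comp.4, cells given 2 µM Comp.2, and cells given vehicle only. Treatment started 24 h after plating and RNA was taken on day 2. Per the series title, both code-named compounds are sequence-specific inhibitors of enzymes that acetylate histones, and the comparisons ask how each changed transcript levels. Nothing in the labels ties the 2 arrays of a group to separate cultures, so their spread, and any p-value built on it, may be technical.

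In the clotting cascade, tissue factor on a cell surface binds factor VII and starts the conversion of factor X to its active form. Active factor X, with factor V as its cofactor, cuts prothrombin to thrombin, and thrombin cuts fibrinogen, a hexamer of alpha, beta and gamma chains, so that fibrin polymerises. Tissue factor pathway inhibitor and protein S, a cofactor of activated protein C, hold the cascade back. The liver makes most of the circulating factors, and fibrinogen is an acute-phase protein whose genes answer to interleukin 6 and glucocorticoids. Lung epithelial cells, A549 among them, can also make fibrinogen.

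The promoters of the 3 fibrinogen genes are shown because the 3 genes were all lower on every compound-treated array, and the F5 promoter because F5 had the widest span of group means. Each sequence runs 5′ to 3′ on the gene's strand from 250 bases before the start to 50 after it, in RefSeq's GRCh38.p14, at chr4:154590693-154590992 (minus strand) for FGA, chr4:154562730-154563029 (plus strand) for FGB, chr4:154612607-154612906 (minus strand) for FGG and chr1:169586432-169586731 (minus strand) for F5. Capitals mark 3 short motifs searched on both strands: ATTAAC, an AT-rich motif, CTGGGAA, the core of an interleukin 6 response element, and TTGCNNAA, a C/EBP-type site.
FGA: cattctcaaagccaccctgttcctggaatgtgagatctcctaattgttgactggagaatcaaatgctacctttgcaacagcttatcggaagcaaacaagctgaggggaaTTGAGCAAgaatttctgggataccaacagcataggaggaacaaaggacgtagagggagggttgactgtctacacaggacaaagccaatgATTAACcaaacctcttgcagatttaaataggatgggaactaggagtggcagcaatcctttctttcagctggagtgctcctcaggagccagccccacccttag
FGB: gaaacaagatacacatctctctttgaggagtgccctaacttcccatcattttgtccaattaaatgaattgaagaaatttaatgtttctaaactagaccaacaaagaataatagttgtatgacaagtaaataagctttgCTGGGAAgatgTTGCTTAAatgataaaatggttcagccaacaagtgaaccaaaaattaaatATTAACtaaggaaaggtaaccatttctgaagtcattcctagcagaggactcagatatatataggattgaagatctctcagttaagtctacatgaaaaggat
FGG: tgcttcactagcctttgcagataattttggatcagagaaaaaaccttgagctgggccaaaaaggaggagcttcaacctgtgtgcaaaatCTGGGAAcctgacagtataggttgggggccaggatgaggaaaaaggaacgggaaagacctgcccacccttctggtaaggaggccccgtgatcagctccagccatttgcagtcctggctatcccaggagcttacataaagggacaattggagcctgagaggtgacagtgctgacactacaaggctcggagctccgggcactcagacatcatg
F5: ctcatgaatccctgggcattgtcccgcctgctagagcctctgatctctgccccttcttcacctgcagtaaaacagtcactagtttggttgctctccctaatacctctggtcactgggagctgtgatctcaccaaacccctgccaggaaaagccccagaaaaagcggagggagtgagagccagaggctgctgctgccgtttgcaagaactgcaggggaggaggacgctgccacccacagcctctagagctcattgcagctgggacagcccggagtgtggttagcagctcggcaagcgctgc

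ATTAAC lay at -52 to -47 from the start in FGA and at -51 to -46 in FGB. CTGGGAA lay at -112 to -106 in FGB and at -161 to -155 in FGG, and TTGCNNAA at -141 to -134 in FGA and at -101 to -94 in FGB. Among 35116 promoters of this length, 6.88% held ATTAAC, 10.8% CTGGGAA and 10.5% TTGCNNAA. Of the other 6 genes, F2 held ATTAAC and F10 held CTGGGAA, and the F5 window held none of the 3. CCAAT, found in 34.6% of all promoters, was in all 3 fibrinogen windows and in F10. TGANTCA, an AP-1-type site present in 7.71% of promoters, was in F3 alone of the 9, and the GC box GGGCGG, present in 45.0%, was in F3, PROS1 and F10. No match of one motif overlapped a match of another. The GC content was 47.0% for FGA, 32.7% for FGB, 52.0% for FGG and 58.0% for F5, beside a median of 58.7% over all promoters, and the FGB window held 0 CpG dinucleotides. These matches describe the letters alone, and the motifs were chosen with the sequences in view.

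All values are RMA signals on a log2 scale, so a difference of 1 is a doubling of signal. Array medians lay between 4.55 and 4.56, and the median gene had a mean signal of 5.35. By their means over all 6 arrays, F3, F10 and F2 lay below that median gene, where background compresses differences, and the others lay above it. The F5 mean under Comp.4 alone, 5.33, was just below the median gene. Signals of different genes come from different probes and are not compared as amounts of RNA. Of 11 lung epithelial markers, the keratins KRT7, KRT8, KRT18 and KRT19, EPCAM and CDH1 lay above the median gene. AGER, read from the brightest of its 6 probe sets, lay just above it at 5.50. NKX2-1, NAPSA, SFTPB and SFTPC lay below it. Of 12 hepatocyte markers, APOA2, APOH, TTR and the transferrin gene TF lay above it. APOA1, AHSG, AMBP, SERPINA1, HP, CYP2E1, CYP3A4 and ALB lay below it, ALB at 4.23 to 4.37 on the 6 arrays. None of the 6 platelet and megakaryocyte markers lay above it. CD68, also a lysosomal gene, was the 1 marker of 51 measured outside the pathway lists that passed the test in any comparison (higher under Comp.2 than under vehicle by 0.67, adjusted p = 0.0412, limma), and its part in the results below was not tested. The 8 measured leukocyte markers that include CD68 had a mean signal of 4.96 on both Comp.4 arrays, 4.96 and 5.04 on the Comp.2 arrays, and 4.86 and 4.81 on the vehicle arrays, with the leukocyte gene PTPRC at 2.64 to 2.78 throughout. In RNA from whole cultures, fewer cells that express a gene and less RNA per cell cannot be told apart.

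**Figure D1:**
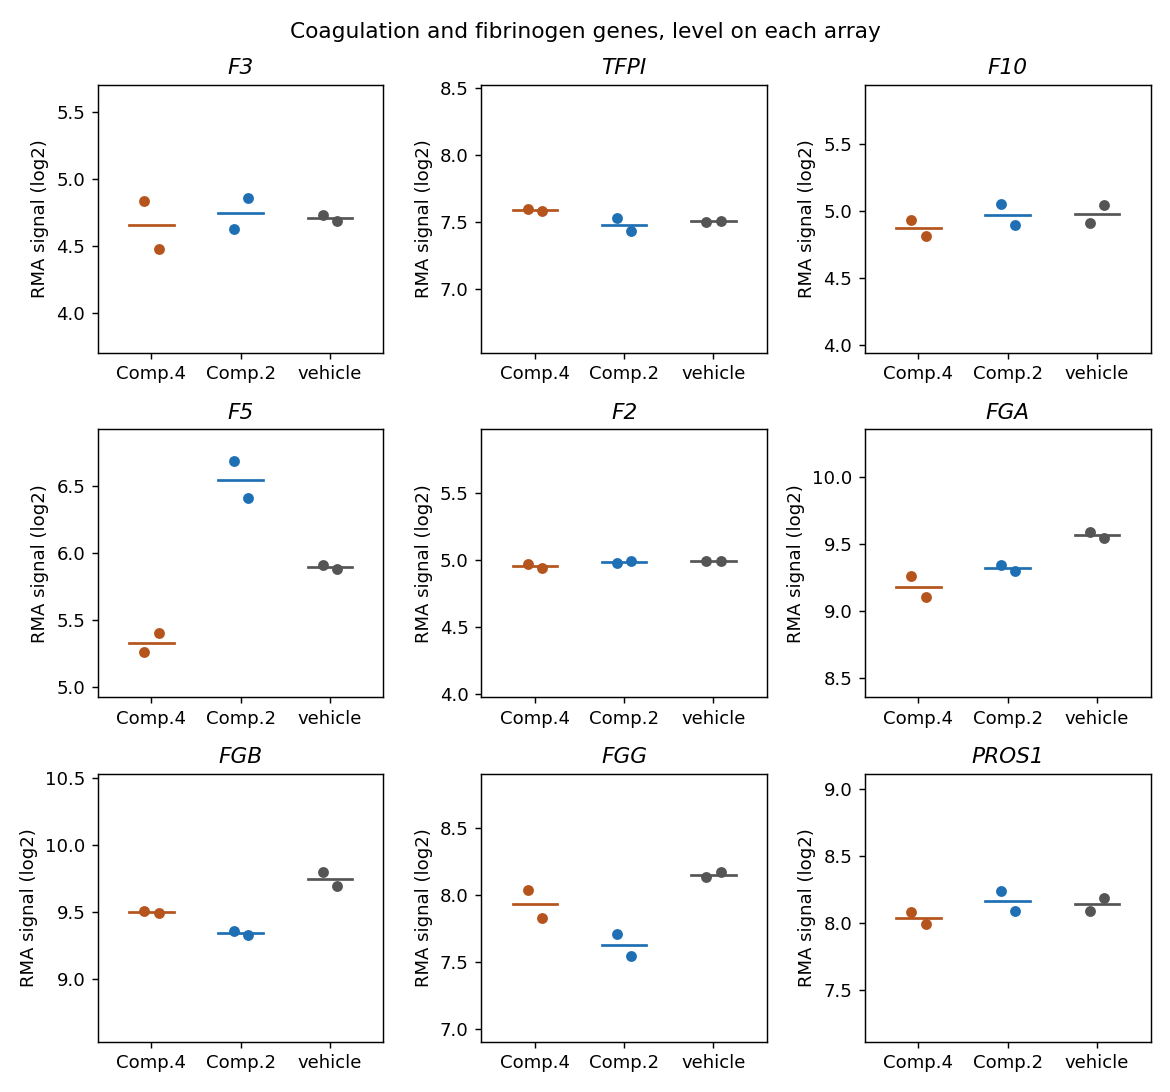
RMA signal (log2) of the 9 genes on each array; points are arrays, horizontal lines are group means (n = 2), and every panel spans the same number of log2 units. F5 is highest under Comp.2 and lowest under Comp.4, and FGA, FGB and FGG are highest under vehicle.

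The group means of F3, TFPI and F10, which act where the cascade starts, spanned at most 0.11. F3 encodes tissue factor, and its signal was 4.84 and 4.48 under Comp.4, 4.63 and 4.86 under Comp.2, and 4.73 and 4.69 under vehicle. The Comp.4 arrays enclosed the vehicle arrays, so the groups overlapped in every comparison. TFPI, whose product blocks tissue factor with factor VII and active factor X, had 7.60 and 7.58 under Comp.4, 7.53 and 7.43 under Comp.2, and 7.50 and 7.51 under vehicle. Comp.4 arrays were above both other groups by a narrow margin, 0.09 over vehicle (SE 0.07, 95% interval -0.08 to 0.26) and 0.11 over Comp.2 (SE 0.07, -0.06 to 0.28; 0.06 to 0.16 without 1 array at a time). F10, the gene of factor X, had 4.93 and 4.81 under Comp.4, 5.05 and 4.89 under Comp.2, and 4.91 and 5.04 under vehicle, with overlap in every comparison.

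F5, the gene of the cofactor factor V, lay on opposite sides of vehicle under the 2 compounds. Its signal was 5.26 and 5.40 under Comp.4, 6.69 and 6.41 under Comp.2, and 5.91 and 5.88 under vehicle. Both Comp.2 arrays were above, and both Comp.4 arrays below, both vehicle arrays, an order without overlap that 2.22% of all 22395 genes shared. The mean was 5.33 ± 0.10 under Comp.4, 6.55 ± 0.19 under Comp.2 and 5.89 ± 0.02 under vehicle (SD, n = 2 each). Against vehicle this was a difference of 0.66 under Comp.2 (SE 0.11, 95% interval 0.40 to 0.92, 1.58-fold higher) and of -0.56 under Comp.4 (SE 0.11, -0.82 to -0.31, 1.48-fold lower). Comp.4 minus Comp.2 was -1.22 (SE 0.11, -1.48 to -0.97, 2.33-fold lower under Comp.4). The 2 arrays differed most under Comp.2, and leaving out 1 array at a time moved Comp.4 minus Comp.2 between -1.36 and -1.09.

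F2, the prothrombin gene, had the narrowest span of group means, 0.03. Its signal was 4.97 and 4.94 under Comp.4, 4.98 and 4.99 under Comp.2, and 4.99 on both vehicle arrays. Comp.2 differed from vehicle by -0.01 and Comp.4 by -0.03, with an SE of 0.07 each, at a signal below the median gene.

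The 3 fibrinogen chain genes were lower on all 4 compound-treated arrays than on both vehicle arrays. FGA, the alpha chain gene, had 9.26 and 9.10 under Comp.4, 9.34 and 9.30 under Comp.2, and 9.59 and 9.54 under vehicle. FGB, the beta chain gene, had 9.51 and 9.49 under Comp.4, 9.36 and 9.33 under Comp.2, and 9.80 and 9.69 under vehicle. FGG, the gamma chain gene, had 8.04 and 7.83 under Comp.4, 7.71 and 7.54 under Comp.2, and 8.13 and 8.17 under vehicle. Comp.4 gave the lowest FGA signals, Comp.2 the lowest FGB and FGG signals, and no groups of these genes overlapped in any comparison. All 4 treated arrays lay below vehicle for 10.1% of all genes, and F2 was the other gene of the 9 with that order.

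Under Comp.2 the differences from vehicle were -0.24 for FGA (SE 0.08, 1.18-fold lower), -0.39 for FGB (SE 0.07, 1.31-fold lower) and -0.52 for FGG (SE 0.10, 1.44-fold lower). Under Comp.4 they were -0.39 for FGA (SE 0.08, 1.31-fold lower), -0.24 for FGB (SE 0.07, 1.18-fold lower) and -0.22 for FGG (SE 0.10, 1.16-fold lower). FGG thus lay furthest below vehicle under Comp.2 and FGA under Comp.4, where FGB and FGG differed from each other by less than their SE. The FGG difference under Comp.4 had a 95% interval of -0.46 to 0.02 and lay between -0.32 and -0.11 without 1 array at a time. Both comparisons use the same vehicle arrays. Their mean over the 3 genes was 8.94 and 8.81 under Comp.4, 8.81 and 8.72 under Comp.2, and 9.17 and 9.13 under vehicle. It was lower than under vehicle in both groups, by 0.28 under Comp.4 and by 0.39 under Comp.2.

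**Figure D2:**
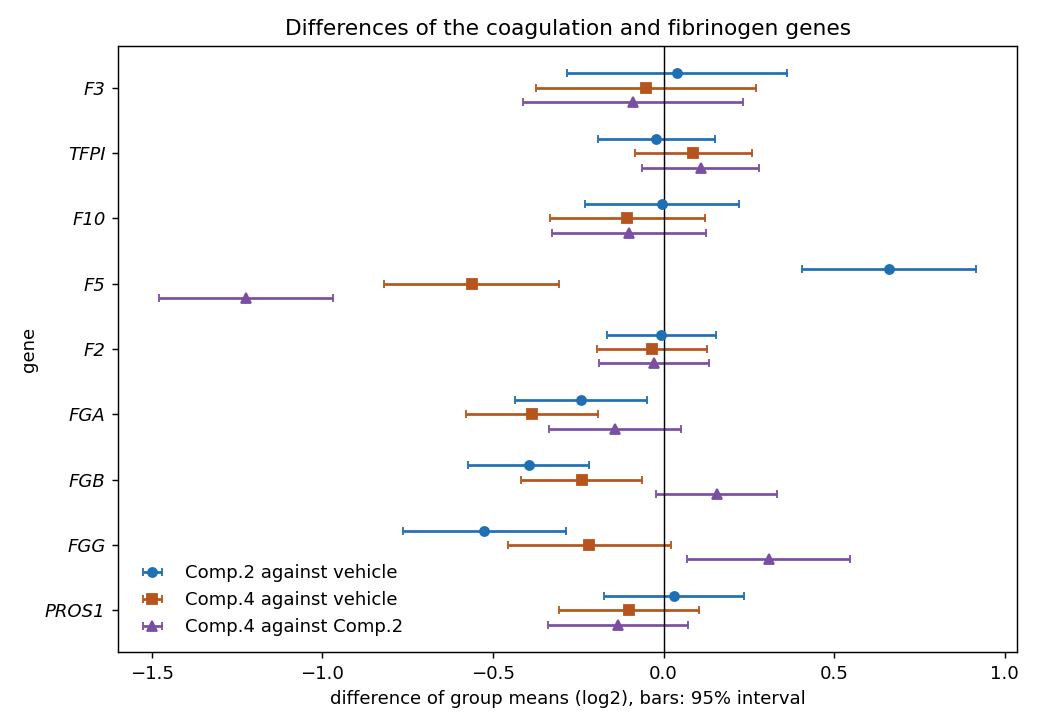
Differences of group means (log2) for the 9 genes in the 3 comparisons, with 95% intervals from each gene's moderated variance in the fit over all genes. The F5 points lie at 0.66, -0.56 and -1.22, and the fibrinogen genes lie below 0 against vehicle under both compounds.

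Dose and day were equal for the compounds, which allows a direct comparison. FGG was higher under Comp.4 than under Comp.2 by 0.31 (SE 0.10, 95% interval 0.07 to 0.55). FGB differed by 0.16 (SE 0.07, -0.02 to 0.33) and FGA by -0.14 (SE 0.08, -0.34 to 0.05). As the genes were chosen with these levels known, the intervals give the error of each difference and do not set the genes apart. Without 1 array at a time, the FGG difference lay between 0.20 and 0.41, and that of FGA between -0.22 and -0.06. Comparing the genes within each array removes what an array's genes share. FGG minus FGA was -1.22 and -1.27 under Comp.4, -1.63 and -1.76 under Comp.2, and -1.46 and -1.37 under vehicle, so that the groups did not overlap. The gap between the probe sets thus narrowed by 0.17 under Comp.4 and widened by 0.28 under Comp.2 relative to vehicle. FGB minus FGA had the same order of groups, at 0.25 and 0.39 under Comp.4, 0.02 and 0.03 under Comp.2, and 0.21 and 0.14 under vehicle. The Comp.4 value of 0.25 lay just above the vehicle value of 0.21, while the Comp.4 arrays themselves lay further apart. How many other gene pairs show such an order was not counted, and these genes were chosen with their levels known. FGG minus FGB overlapped between groups, at -1.48 and -1.66 under Comp.4, -1.65 and -1.79 under Comp.2, and -1.67 and -1.51 under vehicle.

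**Figure D3:**
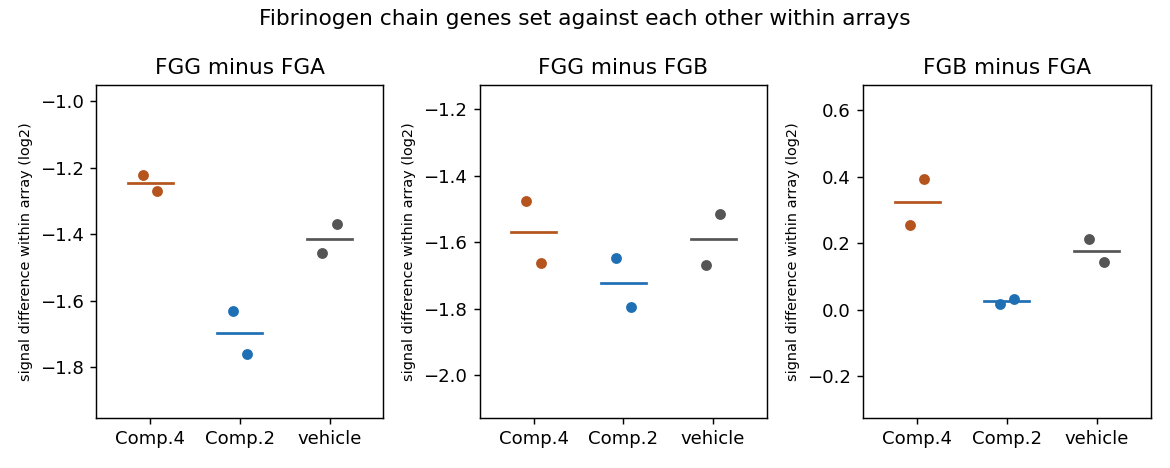
Signal differences (log2) between pairs of fibrinogen genes within each array; points are arrays and lines are group means (n = 2). FGG minus FGA and FGB minus FGA are highest under Comp.4 and lowest under Comp.2, and FGG minus FGB overlaps between groups.

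PROS1, the protein S gene, had 8.08 and 7.99 under Comp.4, 8.24 and 8.09 under Comp.2, and 8.09 and 8.19 under vehicle. The Comp.2 and vehicle arrays overlapped, and the Comp.4 arrays lay just below both other groups. The difference was -0.10 between Comp.4 and vehicle (SE 0.09, 95% interval -0.31 to 0.10) and -0.13 between Comp.4 and Comp.2 (SE 0.09, -0.34 to 0.07). Without 1 array at a time these lay between -0.15 and -0.05 and between -0.21 and -0.06.

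Groups that did not overlap were counted next. Under Comp.2 both arrays lay above both vehicle arrays for 1 of the 9 genes (22.7% of all genes) and below them for 4 (21.0%). Under Comp.4 they lay above for 1 (27.2%) and below for 6 (22.2%). Comp.4 arrays lay above those of Comp.2 for 3 (23.7%) and below for 4 (21.6%). The genes below vehicle were F2, FGA, FGB and FGG under both compounds, and F5 and PROS1 under Comp.4 alone. Some of these separations were small: F2 differed from vehicle by -0.01 under Comp.2 and by -0.03 under Comp.4 (SE 0.07).

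Across the 9 genes the median difference was -0.01 for Comp.2 against vehicle, -0.11 for Comp.4 against vehicle and -0.09 for Comp.4 against Comp.2, beside medians over all genes of 0.00, 0.02 and 0.01. With limma and Benjamini-Hochberg adjustment over all genes at 0.05, none of the 9 passed against vehicle under Comp.2, where 0.196% of all genes passed, or under Comp.4, where 0.147% did. At an unadjusted p under 0.05, F5 was higher (6.23% of all genes were) and FGA, FGB and FGG lower (4.94%) under Comp.2, F5, FGA and FGB were lower (7.88%) and none higher (8.64%) under Comp.4, and between the compounds FGG was higher (7.52%) and F5 lower (7.45%). F5 alone passed between the compounds, where 0.371% of all genes did, as lower under Comp.4 (0.179% of all genes). It kept that call in 5 of 14 alternative settings, among them the dimmest probe set per gene, which cannot change the single F5 probe set. The call was lost without any 1 of the 6 arrays. It was also lost with the replicate number as a block, with the arrays of both compounds alone and with all probe sets tested. Each of these latter settings called 0 genes between the compounds, so the loss there is not particular to F5. The 9 genes were chosen with these values known, so nothing is read from these counts.

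In RefSeq's gene order FGB, FGA and FGG follow each other on chromosome 4, with PLRG1 and LRAT as the nearest protein-coding genes on either side. PLRG1, a spliceosome gene, had a difference of -0.08 under Comp.2 and -0.01 under Comp.4 against vehicle (SE 0.07), and LRAT, a retinol acyltransferase gene, 0.08 and -0.09 (SE 0.10). F5 lies on chromosome 1 between SLC19A2, a thiamine transporter gene, and SELP, the P-selectin gene. SLC19A2 had -0.02 under Comp.2 and -0.0026 under Comp.4 (SE 0.07), and SELP -0.07 and -0.10 (SE 0.11). None of these 4 neighbours passed the test in any comparison, with adjusted p-values from limma between 0.477 and 0.990.

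Likeness of pattern was measured for F5 and FGG, which had the widest ranges of group means (1.22 and 0.52), as the root-mean-square difference between mean-centred log2 values over the 6 arrays. Nearest to F5 were the 5S-named RN5S483 (0.113), the long noncoding RNAs LINC00294 (0.186) and PURPL (0.201), the potassium channel gene KCNJ16 (0.219) and FBN2, a fibrillin gene (0.222). RN5S483 had a mean signal of 3.47, below the median gene. Nearest to FGG were RN5S409 (0.0515), the neutral amino acid transporter gene SLC1A4 (0.0557), MIR4645 (0.0609), SEM1, a proteasome subunit gene (0.0692), and MIR3168 (0.0703). RN5S409, MIR4645 and MIR3168 also lay below the median gene, at mean signals of 5.14, 3.11 and 4.94. SLC1A4 differed from vehicle by -0.61 under Comp.2 and by -0.28 under Comp.4. These distances are a description.

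A further 38 genes of coagulation, its inhibitors, fibrinolysis, thrombin receptors and the vitamin K cycle were written down, of which 36 were measured. None passed the test by limma in any comparison. At an unadjusted p under 0.05, 8 were higher and 2 lower under Comp.2 than under vehicle (as were 6.23% and 4.94% of all genes), 5 higher and 3 lower under Comp.4 than under vehicle (8.64% and 7.88%), and 1 higher and 7 lower under Comp.4 than under Comp.2 (7.52% and 7.45%). The medians of the 36 differences were 0.03, 0.04 and 0.01.

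PLAU, the urokinase gene of fibrinolysis, had the largest difference from vehicle under both compounds. Its signal was 7.62 and 7.61 under Comp.4, 7.80 and 7.91 under Comp.2, and 7.27 and 7.24 under vehicle. All treated arrays lay above vehicle, by 0.59 under Comp.2 (SE 0.07, adjusted p = 0.0513 by limma) and by 0.35 under Comp.4 (SE 0.07, adjusted p = 0.111), so neither passed; its Comp.2 call was made under 3 alternative settings and its Comp.4 call under 2. SERPINE2, which encodes an inhibitor of thrombin and urokinase, had the largest fibrinolysis difference between the compounds, -0.28.

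Among anticoagulant genes THBD, encoding the thrombin receptor thrombomodulin, had 5.97 and 6.12 under Comp.4, 6.34 and 6.37 under Comp.2, and 6.04 and 5.98 under vehicle. It was thus 0.35 above vehicle under Comp.2, and -0.31 was its difference between Comp.4 and Comp.2. PROCR, the endothelial protein C receptor gene, had 10.48 and 10.46 under Comp.4, 10.40 and 10.47 under Comp.2, and 10.10 and 10.17 under vehicle, 0.33 above vehicle under Comp.4. TFPI2, a Kunitz-type protease inhibitor gene, had differences of 0.19 under Comp.2 and 0.18 under Comp.4. PROZ and SERPINA10 went the other way under Comp.2, by -0.34 and -0.30, and PROZ by -0.18 under Comp.4. They were the 2 of the 36 genes counted above as lower under Comp.2, beside 8 higher.

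The largest differences in the other lists were small. They were -0.08 for F12 under Comp.2 and -0.17 for F9 under Comp.4 among protease genes, 0.12 for VWF under Comp.4 among cofactors and 0.22 for F13A1, a transglutaminase chain gene, under Comp.4 in fibrin crosslinking. Between the compounds they were -0.12 for F9, 0.17 for VWF and 0.09 for F13B. Among protease-activated receptors the thrombin receptor gene F2R had -0.13 under Comp.2 and F2RL2 -0.24 under Comp.4 and -0.25 between the compounds. In the vitamin K cycle and factor V secretion list MCFD2, part of a cargo receptor for factor V, had 0.14 under Comp.2, and VKORC1, the target of warfarin, had 0.21 under Comp.4 and 0.23 between the compounds.

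**Figure D4:**
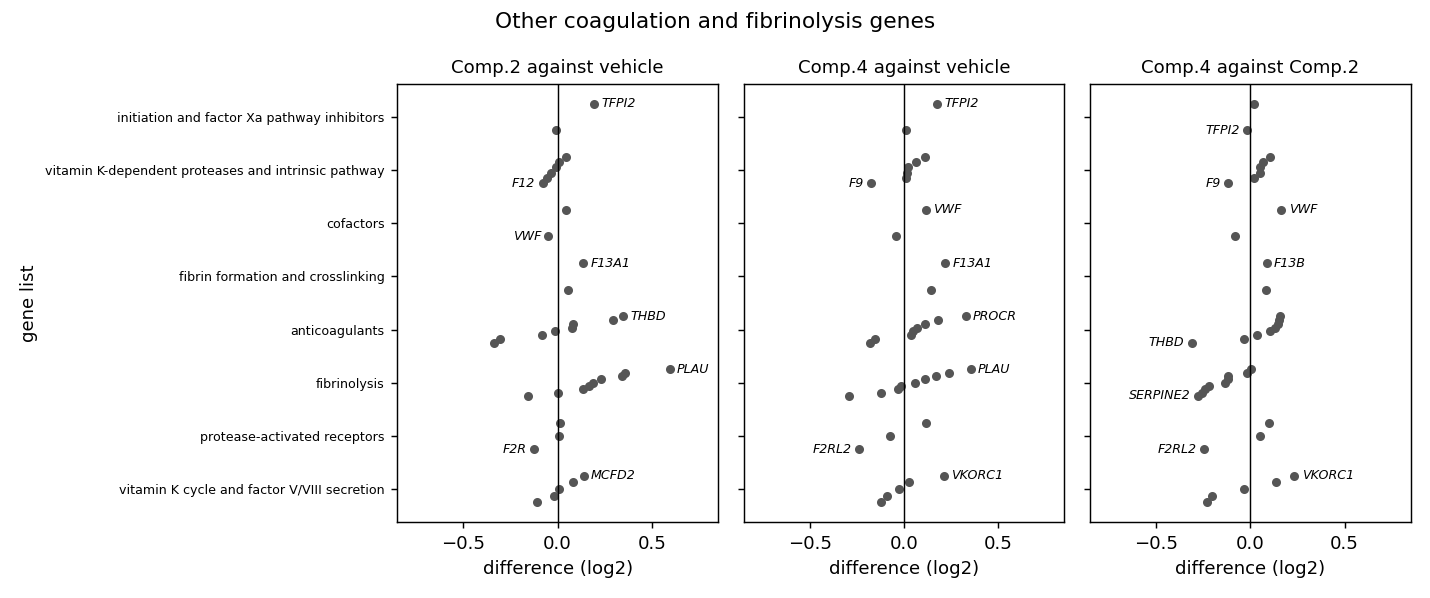
Differences of group means (log2) of the 36 other genes by list in the 3 comparisons; each point is a gene, F7 stands in 2 lists, and the gene with the largest absolute difference in a list is named. None passed the test, and PLAU at 0.59 under Comp.2 is the farthest from 0.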

How the data were processed

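The 6 columns of the deposited table hold 1 log2 value per probe set, made by the authors with RMA, per the submitters' processing notes, which list Expression Console 1.3.1 (Affymetrix) and the 2.0 release of Transcriptome Analysis Console without a role. Of 53617 probe sets, 23871 had 1 gene symbol, 1842 several and 27904 were unnamed here. The brightest probe set stood for a gene, leaving 22395 genes.

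Group means were estimated from all 6 arrays together with limma 3.58.1 in R 4.3.3 (3 residual and 3.71 prior degrees of freedom). SE and 95% intervals are moderated, and p-values were adjusted (Benjamini-Hochberg) over all genes, at a threshold of 0.05. The fit was also run on simulated arrays with known changes, drawn independently of each other. Such a run cannot show whether the spread between the real arrays is technical. Permuting 2 arrays against 2 gives no two-sided p under 0.333, so this test was not run. The number of arrays limits the precision, and no detection calls were used. The members and lists were chosen with earlier results of these data known. Named are all 9 members, other list genes that passed, the largest absolute difference per list and comparison, and the 5 nearest patterns of 2 members. Genes named by position (neighbours), the markers described, PROZ and SERPINA10 were chosen later. Promoters came from RefSeq (GRCh38.p14); all 9 members matched. Of 2 FGB entries, the one at the gene's annotated start was taken. The array's genome build is not given in the sources used here.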

Additional observations from a re-analysis of the deposited data

How the results depend on the processing

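Signs of F5, FGA, FGB and FGG against vehicle changed in 0 fits over all alternatives. This was largely fixed in advance, as only renewed normalization could have changed them. The other fits on all arrays kept the same difference, and leaving out 1 array cannot change the sign where groups do not overlap. Without 1 array at a time the difference lay between 0.52 and 0.80 for F5 under Comp.2 and between -0.63 and -0.50 under Comp.4, and these fits called 0 of the 9 genes. For F3, F10, PROS1 and TFPI some alternatives changed the sign of a difference near 0. F5 was called between the compounds with a variance trend, a robust prior, brighter genes alone, renewed quantile normalization and the dimmest probe set per gene, but not with the compared groups alone, the replicate block, all probe sets tested or any 1 array left out. As F5 has 1 probe set, taking the dimmest probe set per gene changed other genes alone and is no separate check of F5. A variance trend called F5 higher and FGB and FGG lower under Comp.2, and F5, FGA and FGB lower under Comp.4. Among brighter genes the same held without FGB under Comp.4. The 9 genes were chosen with their values known, so nothing is read from these calls. The counts over all genes in both settings are given below. Of the 36 other genes, 0 passed in each direction of each comparison. With a variance trend 3 were higher under Comp.2 (PLAU, PROCR, TFPI2) and 3 under Comp.4 (the same genes), and 1, F2RL2, was lower under Comp.4 than under vehicle and 1, again F2RL2, than under Comp.2. Among 21 brighter genes 1 (PLAU) was higher under Comp.2, 2 (PLAU, PROCR) under Comp.4, and 1 (THBD) lower under Comp.4 than under Comp.2; renewed normalization called 1 (PLAU) under Comp.2. Over all genes, a variance trend called 226 higher and 162 lower under Comp.2 against 30 and 14, 488 and 738 under Comp.4 against 12 and 21, and 484 and 591 between the compounds against 43 and 40. Brighter genes alone gave 154 and 79, 340 and 499, and 324 and 392; the compared groups alone gave 9 and 5 under Comp.2 and 0 otherwise; all probe sets tested gave 4 and 9 under Comp.4 and 0 otherwise. Without 1 array, genes passed almost only for Comp.2 against vehicle, when a Comp.4 array was the one left out. With the replicate block, 0 of the 36 passed; the numbers did not pair the arrays (correlations of deviations 0.03, 0.01 and -0.04), and over all genes the block called 9 and 6 under Comp.2, 0 and 4 under Comp.4, and 0 and 0 between the compounds.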

Other observations

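Among factors known to act on fibrinogen transcription in liver and the interleukin 6 axis upstream of it, 13 of 16 written were measured: FOXA and C/EBP factors, the glucocorticoid receptor gene NR3C1, and STAT3 and the interleukin 6 receptor chain genes among them. None passed by limma in any comparison; at an unadjusted p under 0.05, FOXA2 and SOCS3 were lower under Comp.2 (as were 4.94% of all genes), CEBPA was higher (8.64%) and FOXA2 lower (7.88%) under Comp.4, and CEBPA and CEBPB were higher under Comp.4 than under Comp.2 (7.52%). FOXA2 had 8.51 and 8.53 under Comp.4, 8.60 and 8.59 under Comp.2, and 8.92 and 8.82 under vehicle, a difference of -0.35 under Comp.4 and -0.28 under Comp.2 (SE 0.07). CEBPA had 6.05 and 5.86 under Comp.4, 5.49 and 5.66 under Comp.2, and 5.58 and 5.54 under vehicle. Its Comp.4 arrays lay above both other groups, by 0.40 over vehicle and 0.38 over Comp.2 (SE 0.10). IL6, the interleukin 6 gene, lay below the median gene on all arrays, at 4.47 and 4.29 under Comp.4, 4.21 and 4.34 under Comp.2, and 4.32 and 4.33 under vehicle. APOH, a hepatocyte marker that binds phospholipid and affects clotting, had 9.94 and 9.88 under Comp.4, 9.42 and 9.44 under Comp.2, and 9.58 and 9.62 under vehicle, a difference between Comp.4 and Comp.2 of 0.48 (SE 0.07) that did not pass (adjusted p = 0.0593, limma). SOCS3, CEBPB, IL6 and APOH were named after their values were seen.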
